A study of Mus musculus with 18 samples.

Results

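The genes described here are 9 transcription factors and hormone receptors of the luminal mammary lineage: the receptor genes Esr1, Pgr and Prlr, the signalling factor gene Stat5a, and the transcription factor genes Foxa1, Gata3, Elf5, Tfap2b and Bhlha15. They were chosen by name, with earlier results of the same arrays known, and every probe that the array files assign to them by current or older symbol was taken. This gave 15 probes for 9 genes, out of 41174 probes and 28919 genes or transcripts on the arrays. The files call Tfap2b by its older name Tcfap2b, Bhlha15 by Mist1, and 2 of the 3 Prlr probes by AI987712.

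RNA came from flash-frozen whole mammary tissue of FVB/N females in 3 groups: 5 single tumours of ErbB2 knock-in mice (KI), 2 pools of 5 NIC tumours each, and 2 normal mammary glands. ErbB2 is a growth factor receptor with tyrosine kinase activity, and the series concerns β-catenin signalling in tumours driven by it. Each RNA was set against a universal mouse reference RNA on a pair of arrays with the dyes exchanged, 18 arrays in all, and a level below is the log2 ratio of sample over that reference, averaged over the pair. The identifier of normal gland 2 carries an ending, PI, that the labels do not explain and that of normal gland 1 lacks. The labels do not spell out NIC, the promoter that drives ErbB2 in either kind of tumour, or the age and reproductive state of the mice. A NIC pool averages its 5 tumours, so the gap between pools says little about single NIC tumours. The KI values come from a table of their own, apart from the table that holds the NIC and normal values, and that table belongs to another platform record, so in KI against normal and KI against NIC the KI group cannot be told apart from its table or its platform record.

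Hormones reach the mammary epithelium through a few luminal cells that carry the oestrogen receptor (Esr1) and progesterone receptor (Pgr), which act on DNA as ligand-bound transcription factors and signal to neighbouring cells through secreted factors such as amphiregulin. Foxa1 opens chromatin for the oestrogen receptor, and Gata3 maintains luminal identity. Prolactin acts through its receptor Prlr on the kinase JAK2 and the factor STAT5A, and with the ETS factor Elf5 it drives luminal cells towards milk secretion. Bhlha15, also known as MIST1, sets up the secretory machinery of exocrine cells, and Tfap2b belongs to the AP-2 family of epithelial factors.

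Facts of the whole set of arrays bear on these values in a few ways. The 2 arrays of each KI tumour deviated together from the group mean (r across probes from 0.803 to 0.936). For the normal glands this r was 0.587 and for the NIC pools 0.190. In a group of 2 the deviations mirror each other, and r is also low where the 2 samples differ little. These values are therefore not comparable across groups. Without subtraction of the group mean, paired arrays correlated at 0.880 to 0.904 in the KI tumours and at 0.824 to 0.943 in the other samples. The Cy3 arrays of NIC pool 1 and normal gland 2 correlated least with the other arrays of their groups, at medians of 0.827 and 0.803. Adipocyte markers had a median level of −0.05 to 0.43 in the KI tumours and of 0.00 to 0.36 in the NIC pools, against 3.60 to 3.88 in the normal glands. Luminal epithelium markers ran the other way, with medians of 2.29 to 2.93 in the KI tumours and 2.42 to 2.60 in the NIC pools, against 0.37 to 0.62 in the normal glands. In whole tissue, fewer cells of a type and less RNA per cell cannot be told apart.

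The promoters of 4 members are shown because their genes differed at least 2-fold, by the brightest probe, in 1 or more of the 3 comparisons, as did 19.1% of all genes in NIC against normal, 17.1% in KI against normal and 6.78% in KI against NIC. Each covers 250 bases before to 50 bases after a RefSeq transcript start on GRCm38.p6, on the gene's own strand. The windows are Foxa1 at chr12:57546062-57546361 (minus strand), Gata3 at chr2:9878551-9878850 (minus strand), Tfap2b at chr1:19211804-19212103 (plus strand) and Bhlha15 at chr5:144190036-144190335 (plus strand). For Bhlha15 the transcript start is also the outer start of the gene. For Foxa1, Gata3 and Tfap2b it lies inside the bounds of the gene. Capitals mark matches, on either strand, to the forkhead motif TGTTTAC, the AP-2 motif GCCNNNGGC and the E-box CAGCTG.
Foxa1: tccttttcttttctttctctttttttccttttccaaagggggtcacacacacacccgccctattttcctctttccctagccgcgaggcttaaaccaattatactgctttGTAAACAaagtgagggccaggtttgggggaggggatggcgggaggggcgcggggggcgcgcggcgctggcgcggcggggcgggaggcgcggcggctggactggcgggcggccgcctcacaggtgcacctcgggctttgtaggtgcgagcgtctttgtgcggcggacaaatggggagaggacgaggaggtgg
Gata3: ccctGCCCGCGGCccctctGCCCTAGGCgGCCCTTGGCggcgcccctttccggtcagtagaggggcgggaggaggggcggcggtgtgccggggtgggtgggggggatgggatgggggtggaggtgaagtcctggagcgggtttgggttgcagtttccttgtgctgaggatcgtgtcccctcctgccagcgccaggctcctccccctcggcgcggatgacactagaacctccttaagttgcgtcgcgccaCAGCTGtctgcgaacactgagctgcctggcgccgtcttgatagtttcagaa
Tfap2b: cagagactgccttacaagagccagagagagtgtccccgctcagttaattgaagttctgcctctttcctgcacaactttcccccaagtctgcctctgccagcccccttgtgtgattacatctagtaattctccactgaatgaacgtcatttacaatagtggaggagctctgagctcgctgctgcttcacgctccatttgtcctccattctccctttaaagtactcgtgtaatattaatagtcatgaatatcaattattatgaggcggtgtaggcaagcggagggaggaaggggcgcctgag
Bhlha15: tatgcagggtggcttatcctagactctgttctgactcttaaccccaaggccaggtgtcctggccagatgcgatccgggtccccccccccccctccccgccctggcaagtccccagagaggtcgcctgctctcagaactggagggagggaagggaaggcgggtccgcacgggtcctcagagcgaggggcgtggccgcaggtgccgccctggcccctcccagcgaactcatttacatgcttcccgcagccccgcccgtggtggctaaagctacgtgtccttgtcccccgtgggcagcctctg
The Foxa1 promoter held 1 forkhead match, at −141 from that transcript start. The Gata3 promoter held 3 AP-2 matches, at −246, −231 and −221, and 1 E-box at −1. No match to the 8 motifs searched was in these windows of Tfap2b and Bhlha15. Of 32851 promoter windows of the same length, 3.65% hold the forkhead motif, 16.6% the AP-2 motif and 16.3% the E-box. The other motifs searched were the binding motif of GATA factors, AGATAA (11.2% of windows), ETS (CCGGAAG, 8.86%), STAT (TTCNNNGAA, 8.30%), the oestrogen response element (0.07%) and its core (AGGTCA, 16.3%). A match describes letters and is no evidence of binding.

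The members differed from one another in which group stood apart. Foxa1 was high in normal gland and low in both kinds of tumour. Gata3 and, by its brightest probe, Bhlha15 were high in the NIC pools and, with a wide spread, in the KI tumours. Tfap2b was high in the NIC pools alone by 1 of its 2 probes. Elf5 was high in all 9 samples, and the Pgr ratios, from probes of low signal on the KI arrays, lay near 0 throughout. Since the genes were chosen with these patterns known, their levels and differences are given as descriptions with standard errors from limma's fit over all probes, and no p-value is attached to them.

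**Figure D1:**
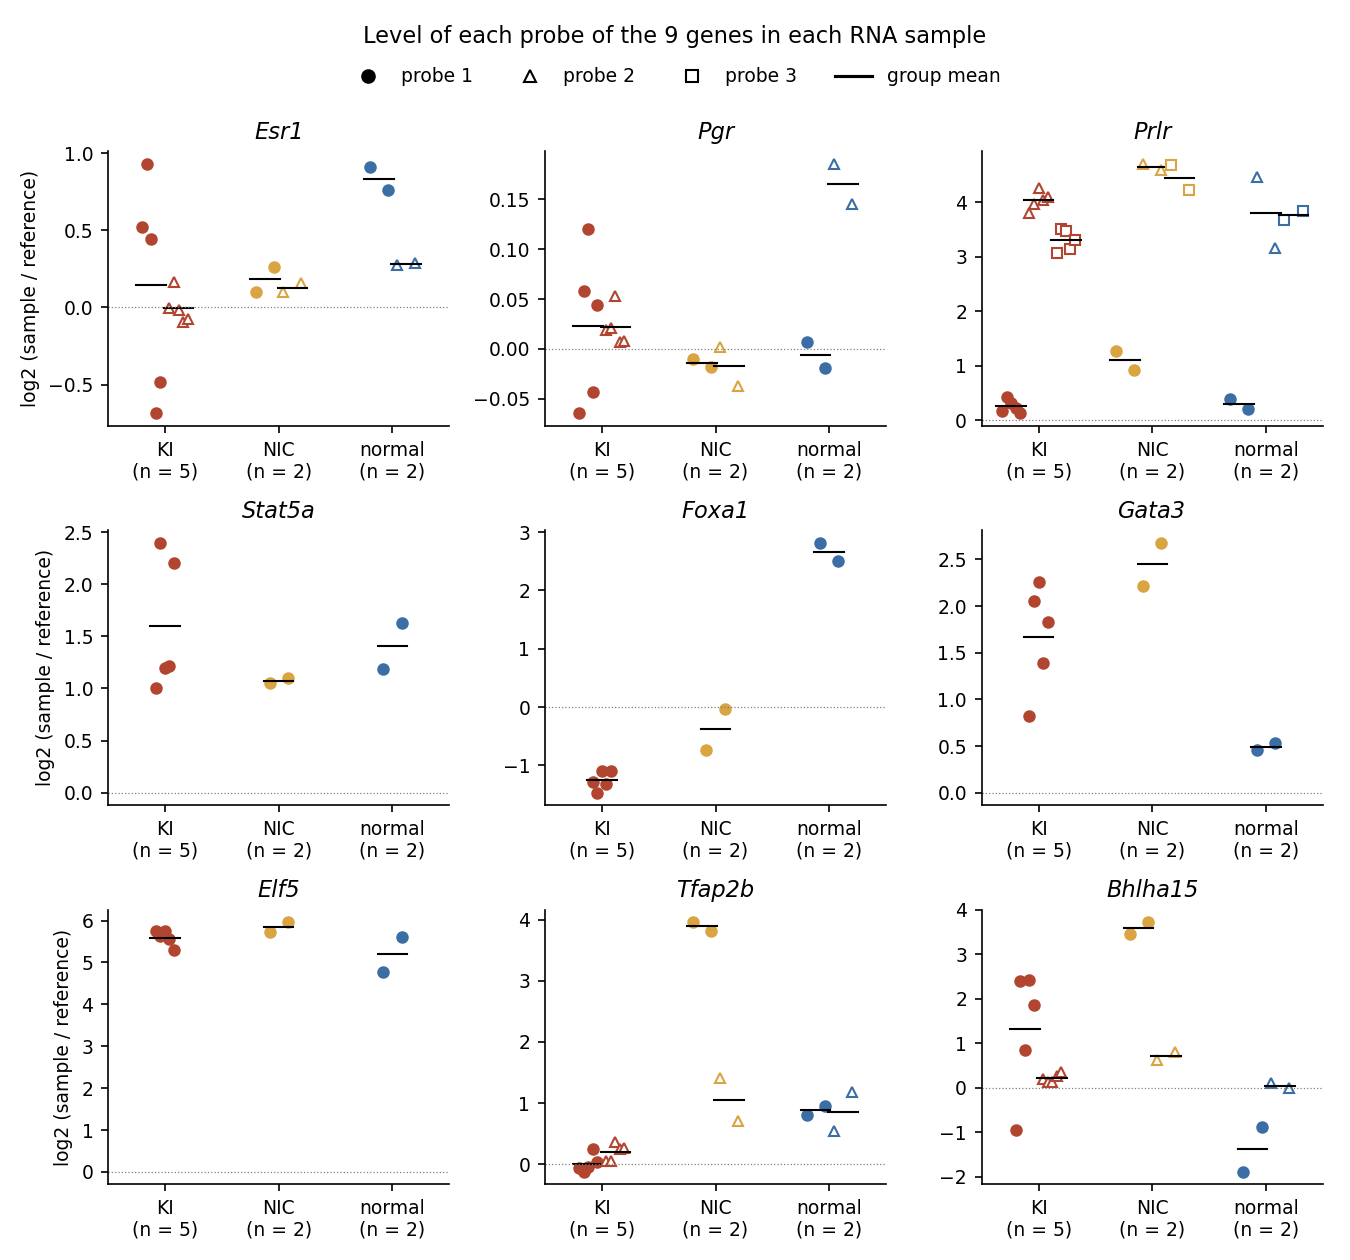
Levels of the 15 probes in the 9 RNA samples, as log2 ratio of sample over reference (vertical axis), for KI tumours (n = 5), NIC tumour pools (n = 2) and normal glands (n = 2); points are RNA samples, lines group means, and each panel has its own scale. Foxa1 lies between 2.50 and 2.82 in the normal glands and below 0 in all 7 tumour samples, whereas Tfap2b probe 1 lies at 3.82 and 3.96 in the NIC pools alone.

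For orientation, 5 of the 9 genes were past an adjusted p of 0.05 in NIC against normal, where 18.6% of all 28919 genes were. In KI against normal it was 4 of 9, beside 42.7% of all genes, and in KI against NIC 3 of 9, beside 6.20%. The selection of the genes used these same comparisons, so nothing is read from these counts. The median difference of the 9 genes was 0.66 in NIC against normal (all genes −0.06), 0.03 in KI against normal (all genes −0.03) and −0.78 in KI against NIC (all genes 0.00).

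Among the receptors, Esr1 encodes oestrogen receptor α. By the brighter of its 2 probes it stood at 0.52, 0.93, 0.45, −0.69 and −0.48 in KI tumours 1 to 5, at 0.10 and 0.26 in the NIC pools, and at 0.91 and 0.76 in the normal glands. Both NIC pools lay below both normal glands, while the KI tumours spread over the levels of both, with 1 of them above the normal glands and 2 below the NIC pools. NIC against normal differed by −0.65 ± 0.12 (SE, n = 2 and 2), and KI against normal by −0.69 ± 0.43 (n = 5 and 2), which is within the spread of the KI tumours. The NIC value was −0.27 with the Cy3 arrays alone and −1.04 with the Cy5 arrays alone. The second Esr1 probe changed little, from −0.10 to 0.17 over the KI tumours, at 0.10 and 0.16 in the NIC pools and at 0.28 and 0.29 in the normal glands. Of all genes, 71.1% had groups that did not overlap in NIC against normal, 54.1% in KI against normal and 31.1% in KI against NIC, so lack of overlap is common in groups of this size.

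Pgr, the progesterone receptor gene, gave ratios close to 0 by both probes. Its first probe ran from −0.06 to 0.12 in the KI tumours, at −0.01 and −0.02 in the NIC pools and at 0.01 and −0.02 in the normal glands. The groups overlapped, and the 3 differences lay between −0.01 and 0.04. This probe was well above background on all 10 KI arrays in both channels. Its mean log2 signal there was only 5.82, against 8.14 or more for every probe of the other members, so it was a dim probe. The second probe was not well above background on any of the 10 KI arrays, in either channel, so its ratios near 0 give no level for the KI tumours or for the reference RNA. It was at 0.02 ± 0.02 in the KI tumours (SD, n = 5), −0.02 ± 0.03 in the NIC pools and 0.17 ± 0.03 in the normal glands (n = 2 each).

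Prlr, the prolactin receptor gene, was higher in the NIC pools than in the other 2 groups by all 3 probes. The brightest probe stood at 0.17, 0.42, 0.32, 0.21 and 0.12 in KI tumours 1 to 5, at 1.27 and 0.92 in the NIC pools, and at 0.39 and 0.21 in the normal glands. The NIC pools lay above all other samples, and KI tumours and normal glands overlapped. NIC against normal was 0.79 ± 0.17 (1.73-fold; n = 2 and 2), KI against normal −0.05 ± 0.12 and KI against NIC −0.85 ± 0.12 (n = 5 and 2).

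The other 2 Prlr probes gave much larger ratios of sample over reference in every sample. Probe 2 stood at 3.80 to 4.26 in the KI tumours, at 4.70 and 4.58 in the NIC pools, and at 4.47 and 3.15 in the normal glands, where the 2 glands differed more than the group means did. Probe 3 stood at 3.06 to 3.51 in the KI tumours, at 4.68 and 4.22 in the NIC pools, and at 3.67 and 3.84 in the normal glands. The arrays of NIC pool 2 differed there, at 3.68 with Cy5 and 4.76 with Cy3. By probe 3 alone the KI tumours all lay below the normal glands (−0.46 ± 0.17), while NIC against normal was 0.70 ± 0.21. The 3 probes thus ordered NIC above KI alike, with KI against NIC between −1.15 and −0.61, and gave KI against normal between −0.46 and 0.23.

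Stat5a, which carries the prolactin signal to milk protein genes, differed among KI tumours more than between groups. It stood at 1.002, 2.40, 1.19, 1.22 and 2.21 in KI tumours 1 to 5, at 1.05 and 1.10 in the NIC pools, and at 1.18 and 1.63 in the normal glands. KI tumours 2 and 5 lay above all other samples, and the other 3 lay close to the NIC pools. NIC against normal was −0.33 ± 0.19 (−0.11 without normal gland 2) and KI against normal 0.20 ± 0.41. With all arrays scaled to 1 spread these were 0.17 and 0.87, so the sign of the NIC difference depended on the scaling.

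Foxa1 is the pioneer factor on which the oestrogen receptor relies for much of its binding. Its single probe stood at −1.29, −1.47, −1.09, −1.32 and −1.10 in KI tumours 1 to 5, at −0.74 and −0.03 in the NIC pools, and at 2.82 and 2.50 in the normal glands. Both normal glands lay more than 2 log2 units above every tumour sample, and the KI tumours lay close together, with an SD of 0.16 that is near the median of all genes, 0.15. Against normal gland the NIC pools differed by −3.04 ± 0.31 (8.24-fold lower; n = 2 and 2) and the KI tumours by −3.91 ± 0.20 (15.1-fold lower; n = 5 and 2). Under all settings run these ranged from −3.40 to −2.22 and from −4.63 to −3.19.

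The Foxa1 gap between KI tumours and NIC pools was less certain. KI against NIC was −0.87 ± 0.20, but NIC pool 1 stood at 0.32 on its Cy5 array and at −1.80 on its Cy3 array, so that its mean of −0.74 lay between values that straddle the KI tumours. The difference was −1.71 with the Cy5 arrays alone, −0.03 with the Cy3 arrays alone and −0.51 without NIC pool 2. It was −1.40 without the Cy3 arrays of NIC pool 1 and normal gland 2.

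Foxa1 fell alongside markers of several cell types. Of 13 adipocyte markers, 10 fell in NIC against normal and 10 in KI against normal, and 0 rose in either. In the same 2 comparisons 6 and 4 of 11 fibroblast, 5 and 2 of 9 endothelium, 4 and 7 of 10 lymphocyte and 6 and 6 of 13 basal markers fell. Of the basal markers 1 and 4 rose, and of the lymphocyte markers 0 and 1. Of all genes 9.81% fell in NIC against normal and 24.9% in KI against normal. The 2 genes whose profile over the 9 samples, after subtraction of each gene's mean, came closest to that of Foxa1 were Gbe1, the glycogen branching enzyme gene (root mean square difference 0.28), and Ghr, the growth hormone receptor gene (0.35), of 19099 genes with a current symbol. Ghr stood at −1.82 to −1.28 in the KI tumours, at −1.06 and −1.11 in the NIC pools, and at 2.87 and 2.17 in the normal glands. The part of adipocyte content, or of any other of these cell types, in the Foxa1 difference was not tested.

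Gata3, the zinc finger factor that maintains luminal cells, was higher in every tumour sample than in the normal glands. It stood at 0.82, 2.05, 2.26, 1.39 and 1.83 in KI tumours 1 to 5, at 2.22 and 2.68 in the NIC pools, and at 0.46 and 0.53 in the normal glands. NIC against normal was 1.95 ± 0.20 (3.87-fold; n = 2 and 2) and KI against normal 1.18 ± 0.37 (2.26-fold; n = 5 and 2). KI tumours and NIC pools overlapped, with KI tumour 3 above NIC pool 1 and KI tumour 1 nearest the normal glands, and KI against NIC was −0.78 ± 0.37. NIC pool 1 stood at 3.07 on its Cy5 array and at 1.37 on its Cy3 array, whereas the paired arrays of each KI tumour differed by at most 0.16. The genes nearest in profile were Pla2g4f, a cytosolic phospholipase gene (0.23), and C2cd5 (0.27). Luminal epithelium markers moved the same way as Gata3: 9 of 14 rose and 0 fell in NIC against normal, and 11 rose and 1 fell in KI against normal. Of all genes 8.81% rose in NIC against normal and 17.8% in KI against normal. The part of luminal epithelium content in the Gata3 difference was not tested.

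Elf5, the ETS factor of luminal progenitors and alveolar cells, had a large ratio of sample over reference in every sample. It stood at 5.75, 5.63, 5.75, 5.55 and 5.30 in KI tumours 1 to 5, at 5.74 and 5.96 in the NIC pools, and at 4.78 and 5.60 in the normal glands. KI tumours overlapped with both other groups, and the NIC pools lay above both normal glands. The difference of NIC from normal was 0.66 ± 0.33, yet 0.25 without normal gland 1 and 1.07 without normal gland 2. KI against normal was 0.40 ± 0.22, and it was −0.40 from the KI scanner values after loess and 2.93 with all arrays scaled to 1 spread, so no direction can be given. On all 9 samples the Cy5 array gave the higher Elf5 value of the pair, by 0.86 to 2.23.

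Tfap2b, an AP-2 factor gene, was high in the NIC pools by its brighter probe. It stood at −0.06, −0.13, −0.05, 0.25 and 0.04 in KI tumours 1 to 5, at 3.96 and 3.82 in the NIC pools, and at 0.80 and 0.96 in the normal glands. The 3 groups did not overlap: the NIC pools lay highest and the KI tumours, around 0, lowest. The NIC pools differed from normal gland by 3.01 ± 0.12 (8.07-fold; n = 2 and 2), KI against normal −0.87 ± 0.11 (1.83-fold lower) and KI against NIC −3.88 ± 0.11 (14.7-fold lower; n = 5 and 2). The small errors rest on close pair means within each group, with SDs of 0.15 in the KI tumours, 0.10 in the NIC pools and 0.11 in the normal glands. On single arrays NIC pool 1 stood at 5.26 with Cy5 and 2.67 with Cy3, and NIC pool 2 at 2.90 with Cy5 and 4.74 with Cy3.

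The second Tfap2b probe was not high in the NIC pools. It stood at 0.05 to 0.36 in the KI tumours, at 1.41 and 0.70 in the NIC pools, and at 0.53 and 1.17 in the normal glands. NIC pools and normal glands overlapped there, with a difference of 0.20 ± 0.37, while the KI tumours again lay lowest (KI against normal −0.66 ± 0.23; KI against NIC −0.86 ± 0.23). As a mean of both probes, NIC against normal was 1.61 and KI against NIC −2.37. The genes nearest in profile to the first probe were Luzp2 (0.30), at 4.16 and 2.95 in the NIC pools, and Gabra4, a GABA receptor subunit gene (0.44), at 3.77 and 4.16 there.

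**Figure D2:**
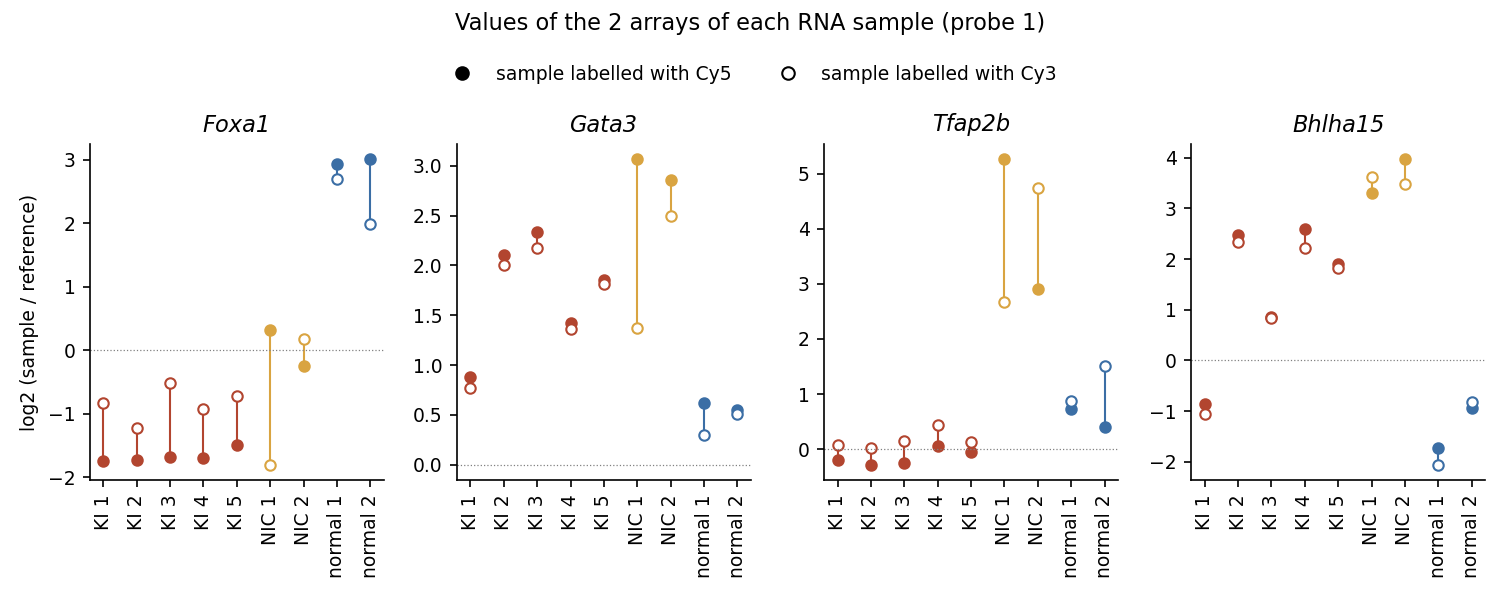
Values of the 2 arrays of each RNA sample for the brightest probe of 4 members, as log2 ratio of sample over reference (vertical axis); filled points are arrays with the sample in Cy5, open points arrays with the sample in Cy3. The NIC pool 1 pair is far apart for Foxa1, Gata3 and Tfap2b, whereas the pairs of Bhlha15 lie within 0.49 of each other in all 9 samples.

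By its brightest probe Bhlha15, the factor gene of secretory cells, spanned the widest range of the 9 genes over the samples, 5.61 log2 units. It stood at −0.95, 2.40, 0.85, 2.41 and 1.87 in KI tumours 1 to 5, at 3.46 and 3.72 in the NIC pools, and at −1.89 and −0.87 in the normal glands. KI tumours 2 to 5 lay between the NIC pools and the normal glands, and KI tumour 1 lay within the range of the normal glands. NIC against normal was 4.98 ± 0.40 (31.5-fold; n = 2 and 2), KI against normal 2.70 ± 0.90 (6.49-fold) and KI against NIC −2.28 ± 0.90 (4.85-fold lower; n = 5 and 2). The second probe kept the order of the group means with smaller steps. It stood at 0.13 to 0.35 in the KI tumours, at 0.62 and 0.80 in the NIC pools, and at 0.10 and −0.01 in the normal glands. By this probe KI tumour 1, at 0.19, lay above both normal glands and was not the lowest KI tumour. As a mean of both probes, NIC against normal was 2.82 and KI against normal 1.43.

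The 2 genes nearest in profile to Bhlha15 were picked on these same 9 samples, so their low values in KI tumour 1 follow from the choice. Car12, a carbonic anhydrase gene (root mean square difference 0.57), stood at −0.91, 1.91, 1.74, 2.58 and 0.96 in KI tumours 1 to 5, at 4.09 and 3.71 in the NIC pools, and at −1.44 and −1.50 in the normal glands. Arfgef3 (0.58) stood at −2.79 in KI tumour 1 and at 0.67 to 2.34 in the other 4. By the brightest probe, the SD of Bhlha15 among the KI tumours was 1.42, and 99.3% of all genes had a smaller one. Esr1 (SD 0.70), Stat5a (0.65) and Gata3 (0.57) also varied more among KI tumours than 94.3%, 93.4% and 91.4% of all genes. The second probes of Bhlha15 (SD 0.097) and Esr1 (0.103) varied less than the median gene (0.154), so the wide spread was not seen by them. By the brightest probes, the tumours that were high differed by gene. Tumour 2 was highest for Esr1 and Stat5a, tumour 3 for Gata3, and tumours 4 and 2 for Bhlha15. The second Bhlha15 probe was highest in tumours 5 and 4.

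**Figure D3:**
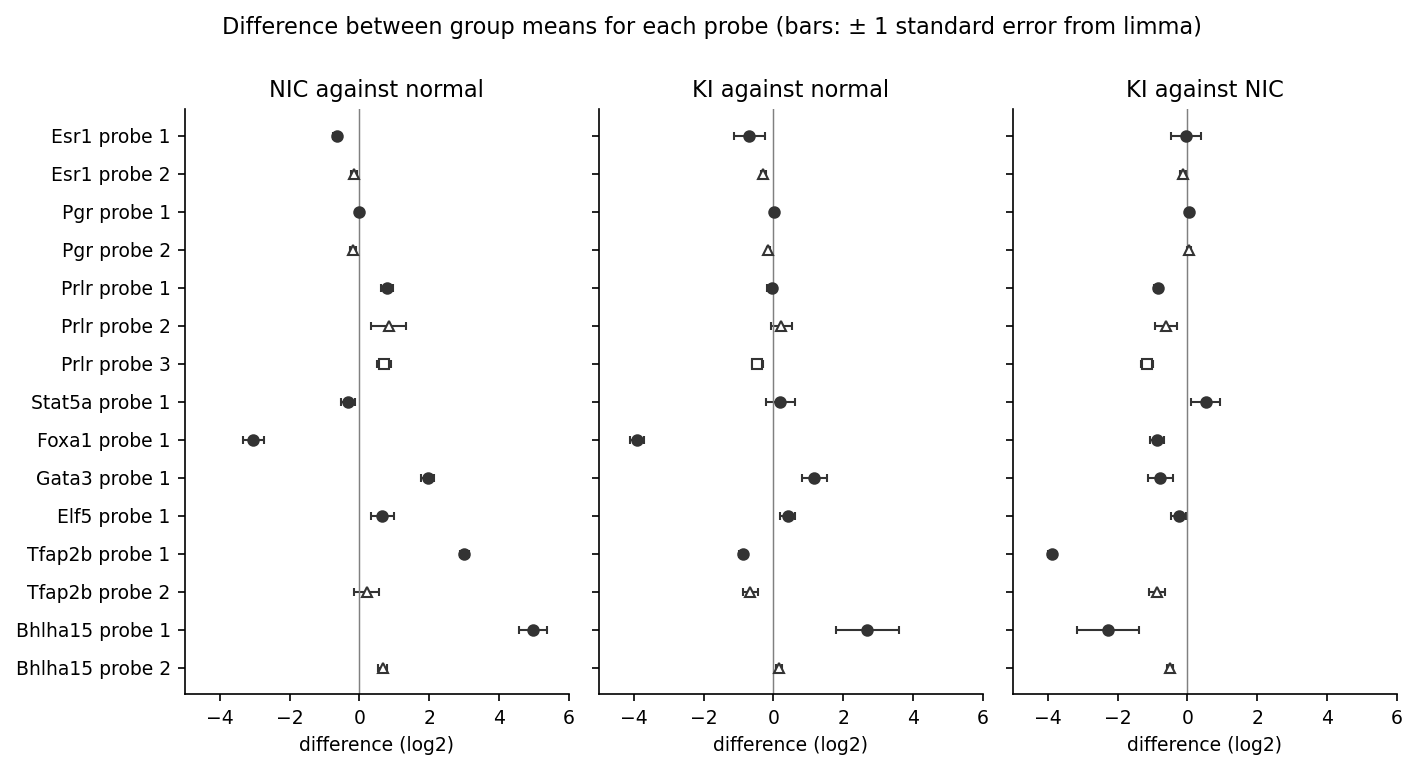
Difference between group means (log2, horizontal axis) for each of the 15 probes in NIC against normal, KI against normal and KI against NIC; bars are ± 1 standard error from limma. Foxa1 lies far left of 0 against normal gland in both kinds of tumour (−3.04 and −3.91), and the second probes of Tfap2b and Bhlha15 lie nearer 0 than the first in each panel.

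Other transcription factors of the luminal lineage, from a list without the 9 members, were mostly higher in the tumours than in normal gland. This list and those that follow were also chosen with earlier results of these arrays known, so their counts are descriptions. Of 24 measured, 13 rose and 0 fell in NIC against normal, with a median difference of 1.88 (all genes −0.06, of which 8.81% rose and 9.81% fell). The NIC rises were led by Id2, an inhibitor of bHLH factors (4.39 ± 0.36; limma adjusted p = 0.0136, n = 2 and 2; other probe 5.12), by the Notch target Hes1 (4.34 ± 0.17; adjusted p = 0.00787) and by Xbp1, the factor of the unfolded protein response (3.94 ± 0.47; adjusted p = 0.0219). In KI against normal 15 rose and 2 fell, with a median of 1.40 (all genes −0.03, of which 17.8% rose and 24.9% fell). Xbp1 rose by 3.25 ± 0.62 (limma adjusted p = 0.00510, n = 5 and 2), the epithelial ETS factor gene Elf3 by 3.21 ± 0.24 (adjusted p = 0.000147) and Klf5 by 2.95 ± 0.29 (adjusted p = 0.000393; other probe 1.17). The falls were the T-box factor gene Tbx3 (−1.20 ± 0.20; other probe −0.23) and Cited1, a coactivator gene of oestrogen receptor cells (−0.45 ± 0.14), which lost its call with the arrays scaled to 1 spread.

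In KI against NIC, 4 of these 24 factors rose and 2 fell (2.92% and 3.29% of all genes), with a median of −0.23. Spdef, an ETS factor of secretory luminal cells, fell to 0.43 ± 0.57 in the KI tumours, against 2.81 ± 0.78 in the NIC pools (−2.38 ± 0.43 SE; limma adjusted p = 0.0233), and Ldb1, which bridges LIM factors, fell by 0.93 ± 0.18. Elf3 rose by 1.28 ± 0.24, Klf5 by 1.33 ± 0.29 (other probe 0.19) and Myb by 0.56 ± 0.10 (other 3 probes from 0.06 to 1.13). Hey1, a Notch target named after its values were seen, was at 1.42 ± 1.59 in the KI tumours (−0.41 to 3.57) and 4.79 ± 0.03 in the NIC pools, and was not called (adjusted p = 0.0899).

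**Figure D4:**
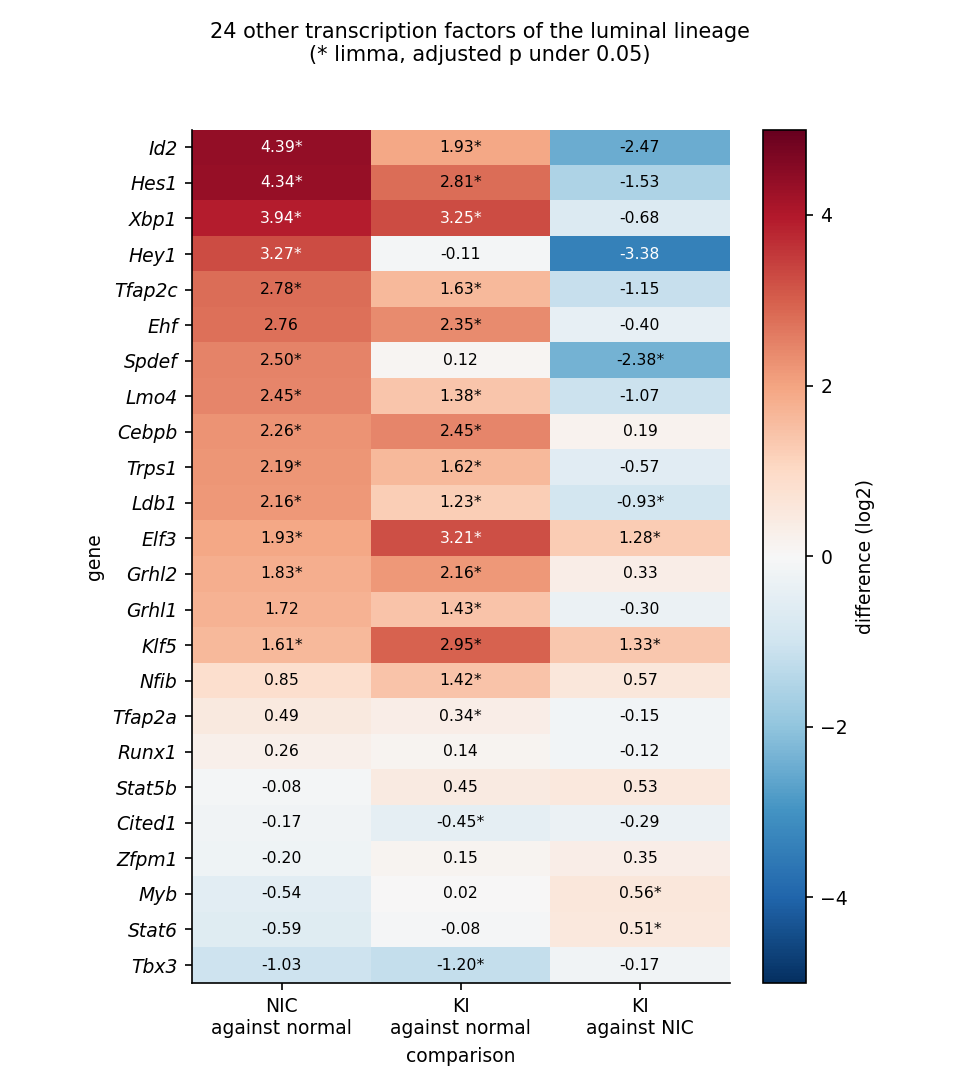
Differences (log2, colour and printed value) of 24 other luminal transcription factors in the 3 comparisons, ordered by NIC against normal; an asterisk marks a limma adjusted p under 0.05 over all genes. In NIC against normal 13 rose and 0 fell, and in KI against NIC 4 rose and 2 fell.

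Genes listed as responsive to oestrogen or progesterone did not move one way. Of 23, 3 rose and 7 fell in NIC against normal (median −0.17), 5 rose and 6 fell in KI against normal (median 0.11), and 3 rose and 0 fell in KI against NIC (median 0.19), beside 18.6%, 42.7% and 6.20% of all genes called in either direction. Areg, encoding amphiregulin, fell to −2.12 ± 0.12 in the NIC pools, against 2.43 ± 0.17 in the normal glands (−4.55 ± 0.14 SE; limma adjusted p = 0.00773). In the KI tumours it ran from −1.80 to 2.98 and was not called against normal (−0.93 ± 1.18; adjusted p = 0.565). Igf1 and the chemokine gene Cxcl12 fell in both comparisons with normal gland (Igf1 −3.03 ± 0.09 in NIC and −2.82 ± 0.25 in KI; Cxcl12 −4.15 ± 0.36 and −3.32 ± 0.43). Their further probes were also lower: −1.89 in NIC and −1.34 in KI for the other probe of Cxcl12, and −4.48 and −1.82 in NIC and −4.26 and −1.41 in KI for the other 2 of Igf1. Both genes are also expressed in stroma. Of 11 fibroblast markers 6 fell in NIC against normal and 4 in KI against normal, beside 9.81% and 24.9% of all genes. The part of fibroblast content in the falls of Igf1 and Cxcl12 was not tested. Xbp1, described above, and the scaffold gene Slc9a3r1 rose in both (Slc9a3r1 2.14 ± 0.31 in NIC and 2.79 ± 0.27 in KI), and Ccnd1, the cyclin D1 gene, rose in NIC (2.20 ± 0.34; adjusted p = 0.0342).

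Rerg, a Ras-like gene linked to the oestrogen receptor, ran in opposite directions in the 2 kinds of tumour. It stood at −0.61 to 1.24 in the KI tumours, at −3.49 to −3.12 in the NIC pools, and at −1.41 to −1.20 in the normal glands. It fell to −3.30 ± 0.26 in NIC pools, against −1.31 ± 0.15 in normal glands (SD; limma adjusted p = 0.0153), a comparison outside the rule for named genes. KI against NIC was 3.64 ± 0.47 (12.4-fold; limma adjusted p = 0.00794), and KI against normal 1.64 ± 0.47 (adjusted p = 0.0263), which lost its call with the arrays scaled to 1 spread. Igfbp4 rose in KI against NIC by 1.41 ± 0.28 (adjusted p = 0.0314; other probe 0.88). Stc2 fell in KI against normal (−2.24 ± 0.71; adjusted p = 0.0387), and it too lost its call under that scaling.

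**Figure D5:**
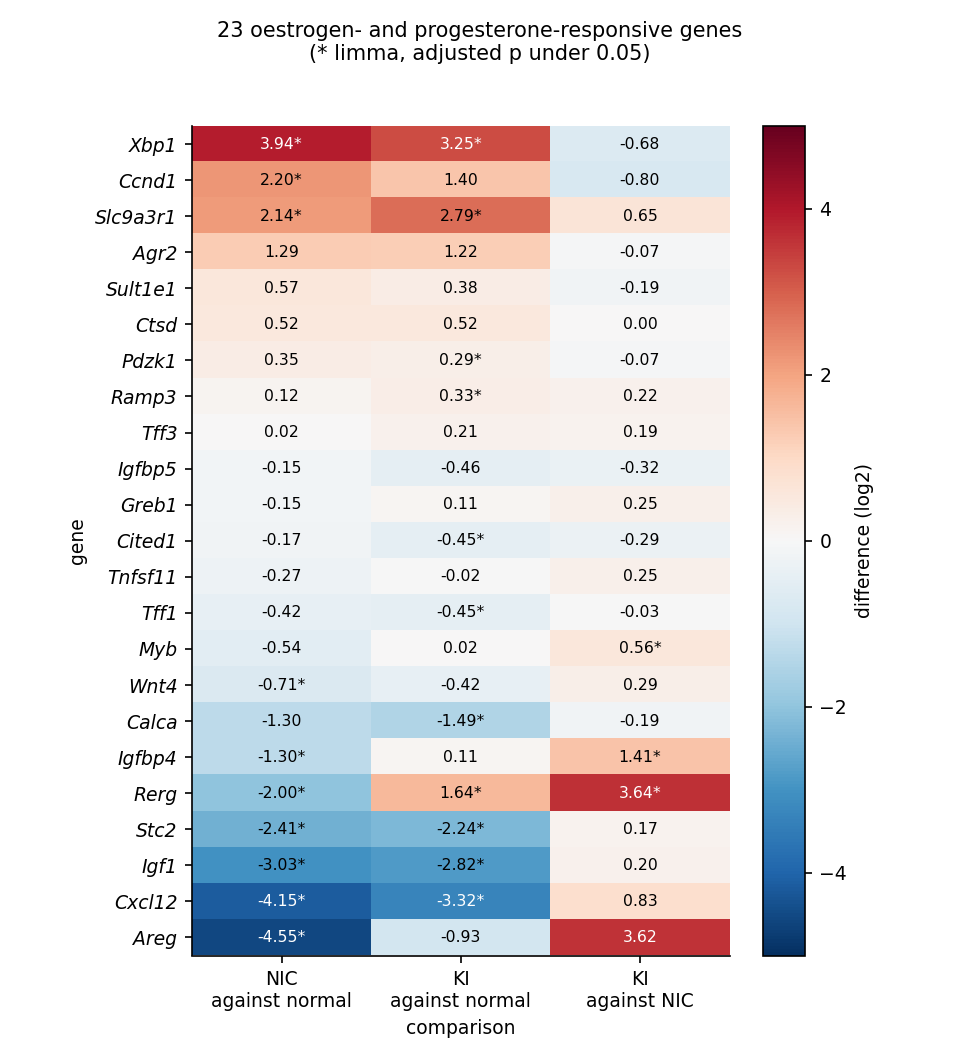
Differences (log2, colour and printed value) of 23 oestrogen- and progesterone-responsive genes in the 3 comparisons, ordered by NIC against normal; an asterisk marks a limma adjusted p under 0.05 over all genes. Xbp1 lies at the top (3.94 in NIC against normal) and Areg at the bottom (−4.55), and the KI and NIC columns part most at Rerg and Areg.

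Of 17 other hormone and growth factor receptors, 0 rose and 1 fell in NIC against normal, 2 rose and 6 fell in KI against normal, and 1 rose and 0 fell in KI against NIC. Of all genes, 8.81% rose and 9.81% fell in the first of these comparisons, 17.8% and 24.9% in KI against normal, and 2.92% and 3.29% in KI against NIC. The single NIC fall was Ghr (−3.61 ± 0.28; limma adjusted p = 0.0126), which also fell in KI tumours (−4.01 ± 0.21; adjusted p = 3.98e-05), with 2 further probes at −3.78 and −3.62 in NIC and at −4.36 and −4.19 in KI. Vdr, the vitamin D receptor gene, rose in KI tumours against normal glands (2.41 ± 0.37; adjusted p = 0.00199) and against NIC pools (1.81 ± 0.37; adjusted p = 0.0337). Igf1r rose in KI tumours (2.14 ± 0.34; its other 2 probes 0.17 and 0.84), and Esrrb, an oestrogen-related orphan receptor gene, fell (−1.72 ± 0.27). Rarb was called lower (−1.54 ± 0.53; adjusted p = 0.0495), a call kept in 6 of 17 alternative settings, and its other probe differed by 0.07. Nr3c1, the glucocorticoid receptor gene, was not called in any comparison by its brightest probe (0.25 in NIC against normal and −0.02 in KI against normal). Its other probe differed by 1.78 and 0.94 in these comparisons, and by −0.83 in KI against NIC. Oxtr, the oxytocin receptor gene, differed by −0.17 in NIC against normal (not called) and −0.22 in KI against normal by its brightest probe. The other Oxtr probe differed by −2.63 and −2.59.

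Genes of the prolactin and STAT5 pathway gave 4 rises and 0 falls among 20 in NIC against normal, 4 rises and 2 falls in KI against normal, and 0 calls in KI against NIC, beside 18.6%, 42.7% and 6.20% of all genes called in the 3 comparisons. Socs2, a feedback inhibitor of cytokine receptors, rose in NIC pools (3.26 ± 0.16; limma adjusted p = 0.00825; other probe 1.85), as did Lalba, the α-lactalbumin gene (3.13 ± 0.26; adjusted p = 0.0137), and Id2. In KI tumours Lalba rose by 2.16 ± 0.67 (adjusted p = 0.0348), Ptpn1, a phosphatase gene, by 2.01 ± 0.33, and Id2 by 1.93 ± 0.62. Csn3, the κ-casein gene, was called lower (−1.32 ± 0.22; adjusted p = 0.00299) but lay at 0.28 with the arrays scaled to 1 spread, so its direction depended on the scaling. Stat5b, the close relative of Stat5a, was not called (−0.08 in NIC against normal and 0.45 in KI against normal), and neither was Jak2 (−0.05 and 0.14). The KI tumours spread widely for Stat5b, from 0.34 to 3.41 (SD 1.28), against 0.56 to 1.12 in the normal glands.

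Genes of the secretory cell, the setting in which Bhlha15 is known to act, gave 4 rises and 0 falls among 16 in NIC against normal (median 0.80), 6 rises and 2 falls in KI against normal (0.33), and 0 rises and 2 falls in KI against NIC (−0.36), beside the same shares of all genes. In NIC pools Xbp1, the chaperone gene Pdia4 (3.29 ± 0.60; limma adjusted p = 0.0441) and Atp2c2, a calcium pump gene of the Golgi (3.01 ± 0.47; adjusted p = 0.0335), rose. Pdia4 and Atp2c2 rose in KI tumours too (3.94 ± 0.46 and 2.65 ± 0.40). The 2 falls in KI against NIC were Rab genes of this list, known as MIST1 targets in exocrine cells. Rab26 stood at 0.27 in the KI tumours and 2.22 in the NIC pools (−1.94 ± 0.16; adjusted p = 0.00266; other probe −0.12), and Rab3d at −0.40 and 0.63 (−1.02 ± 0.16; adjusted p = 0.0137; other probe −1.88). Rab3d was also called lower in KI against normal, where the brightest Bhlha15 probe was higher by 2.70. That call was kept in 10 of 18 settings, with differences from −0.78 to −0.23.

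Coregulators and chaperones of steroid receptors gave 1 rise and 0 falls among 16 in NIC against normal, 6 rises and 3 falls in KI against normal, and 2 rises and 0 falls in KI against NIC. These are 1, 9 and 2 of 16 genes called in either direction, beside 18.6%, 42.7% and 6.20% of all genes. Fkbp5, a cochaperone gene, rose in NIC pools (1.99 ± 0.30; limma adjusted p = 0.0325) and in KI tumours (2.18 ± 0.31; adjusted p = 0.00150). The acetyltransferase genes Crebbp (−0.78 ± 0.11) and Ep300 (−0.36 ± 0.07) fell in KI tumours by their brightest probes, while their other probes differed by 0.04 and 0.01. Ncor1, a corepressor gene, was called lower by its brightest probe (−0.38 ± 0.09), whereas its other 4 probes differed by 0.22 to 1.23. Hsp90aa1 rose in KI against NIC by 1.01 ± 0.13 (adjusted p = 0.00824).

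Among the remaining cell type lists, 11 of 13 proliferation genes rose in NIC against normal and all 13 in KI against normal. Of 13 basal markers 1 rose and 6 fell in NIC against normal, and 4 rose and 6 fell in KI against normal. In KI against NIC 1 of 13 basal and 1 of 14 luminal epithelium markers rose, and 0 of either list fell. Krt14, a basal keratin gene, rose in KI against NIC by 2.85 ± 0.23 (limma adjusted p = 0.00242), and Krt19, a luminal keratin gene, by 3.19 ± 0.64 (adjusted p = 0.0329). Endothelium markers fell in 5 of 9 cases in NIC against normal and 2 of 9 in KI against normal. Beside these lists, 8.81% of all genes rose and 9.81% fell in NIC against normal, and 17.8% rose and 24.9% fell in KI against normal. In KI against NIC 2.92% rose and 3.29% fell. Of 10 lymphocyte markers 4 fell in NIC against normal, 1 when the Cy3 arrays of NIC pool 1 and normal gland 2 were left out, and 1 rose and 7 fell in KI against normal. Leaving out either NIC pool left limma with 0 calls among all genes in NIC against normal, where 6403 and 6988 genes had an unadjusted p under 0.05, so every NIC call above needs both pools. With the Cy3 arrays alone Xbp1, Ghr, Ccnd1, Slc9a3r1, Fkbp5 and Pdia4 were not called in that comparison, and Atp2c2 was called neither with the Cy5 arrays alone nor without the Cy3 arrays of NIC pool 1 and normal gland 2. Other calls were lost in several of the alternative settings, left-out samples included. In KI against normal, that of Lalba was kept in 7 of 17 settings, and of 18 settings Id2 kept it in 9, Ncor1 in 10, Cited1 in 11, Stc2 in 12, Csn3 in 13 and Rerg in 14. In KI against NIC, Klf5 kept its call in 8 of 18 settings, Igfbp4 in 9, Vdr in 11, Ldb1 in 12, Myb and Krt19 in 13, and Spdef in 14 of 17. Without the KI arrays of the smaller extraction day Lalba, Csn3 and Ncor1 were not called in KI against normal, nor were Klf5, Myb, Ldb1 and Krt19 in KI against NIC. With the Cy5 arrays alone Id2 and Csn3 were not called in KI against normal, nor were Klf5, Myb, Spdef, Vdr, Igfbp4 and Krt19 in KI against NIC. With the Cy3 arrays alone Cited1 and Ncor1 were not called in KI against normal, nor were Myb and Ldb1 in KI against NIC.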

How the data were processed

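Expression was measured on 2-colour Agilent arrays, 18 in all, for 9 RNA samples: 5 KI tumours, 2 NIC pools and 2 normal glands. The deposited value tables hold log2 ratios per array, which the authors processed in steps not given in the sources used here. RMA is named in the submitters' processing notes without a stated role. For the 10 KI arrays, scanner files written by Agilent's Feature Extraction software, per the file headers, hold the intensity of each spot and a log10 ratio, red over green. The KI columns correlated with that ratio at 0.941 to 0.953 once turned to sample over reference. For the NIC and normal table, scale and direction were taken by analogy, and its probes were named through the KI scanner files. Where labelling protocols and label fields disagree on the dye of some KI arrays, the label fields were followed.

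Control spots (2256) were left out. Of several probes of a gene the brightest on the KI arrays stood for it, which gave 28919 genes from 41174 probes, named through RefSeq (GRCm38.p6). The replicate was the mean of a dye pair. Two-sided tests came from limma 3.58.1 (R 4.3.3) with lmFit, eBayes and Benjamini-Hochberg adjustment over 28919 genes, fitted for NIC against normal on its own 4 samples and for both KI comparisons on all 9. Calls needed an adjusted p under 0.05.

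The 9 members and all lists were chosen with earlier results of these data known, so members carry no test, and the p-values of list genes, which come from the fit over all genes, are no independent evidence about a list. Other genes are named by rule: the 3 called genes with the largest rise and the 3 with the largest fall per list and comparison, of which the text gives a part, and the 2 genes nearest in profile to each member that spans at least 2 log2 units. Hey1, Nr3c1, Oxtr, Stat5b and Jak2, and further comparisons of genes so named, were added after their values were seen. Nothing says that samples come from separate litters, so p-values reflect only how these RNA samples spread, and their number limits the precision. Alternatives were single dyes, a random block, scaling, probe means, a signal filter, scanner values, extraction day and left-out samples. Leaving out the Cy3 arrays of NIC pool 1 and normal gland 2 was added after seeing the data.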

Additional observations from a re-analysis of the deposited data

Results flagged for a closer look

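By the first probe of Tfap2b, both NIC pools lay above both normal glands (difference 3.012 on the log2 scale) and all 5 KI tumours lay below them (−0.87). By the third probe of Prlr the same held, with 0.696 for NIC and −0.46 for KI. In both cases every sample of one kind of tumour lay on the opposite side of the normal glands from every sample of the other, the 2 differences share their normal glands, and the difference between them was not tested. For Tfap2b the second probe gave 0.20 in NIC against normal, and for Prlr the other 2 probes gave −0.05 and 0.23 in KI against normal. These orders hold for the means of dye pairs. On single arrays of the third Prlr probe, NIC pool 2 stood at 3.68 with Cy5 and 4.76 with Cy3. Normal gland 1 stood there at 3.79 and 3.54, and normal gland 2 at 3.63 and 4.06. None of the 15 probes had a KI tumour that stood apart by Dixon's test.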

How the results depend on the processing

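In NIC against normal limma called 5385 genes. The count was 2050 with the Cy3 arrays alone, 10641 with all arrays and the RNA as a random block, 3425 among genes above the median signal and 10402 with all 9 samples in the fit, and it ranged from 0 to 4232 when 1 sample was left out. It was 0 without either NIC pool. In KI against normal it was 12347, against 8128 with the arrays scaled to 1 spread, 6511 above the median signal, and 9265 to 12066 when 1 sample was left out. In KI against NIC it was 1793, against 4015 with the random block, 887 above the median signal, 3710 from the KI scanner values after loess, and 504 to 2099 when 1 sample was left out (504 without NIC pool 1, 594 without NIC pool 2 and 882 without KI tumour 5). Without the Cy3 arrays of NIC pool 1 and normal gland 2 the counts were 5148, 11763 and 2324. Csn3 in KI against normal turned to 0.28 with the arrays scaled, and as the mean of their probes Ncor1 and Muc1 turned to 0.48 and 0.86; the probes of these 2 genes differ in sign, and the cause for Csn3 was not tested. Of the called genes that the naming rule gave, the calls kept in every setting that left out no sample were 20 of 36 for NIC against normal, 36 of 55 for KI against normal, and, for KI against NIC, 6 of 16. Differences of Foxa1, Gata3, Tfap2b and Bhlha15 against normal gland kept their direction under all settings run. No paired analysis was possible because the replicate numbers name separate animals and pools and pair no samples across groups.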
